A study of Mus musculus with 4 samples.

Results

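The genes of voltage-gated calcium, sodium and potassium channels and of the other potassium channels were compared between IQ3pos and IQ3neg cells of the mouse stomach corpus. Members were all gene symbols of the deposited table that begin with Cacna, Cacnb, Cacng or Kcn and a further letter, or that read Scn, a number and a or b. Kcnq1, Kcne2, Kcnj15 and Kcnj16, channel genes of acid-secreting parietal cells, were left out by the rule. This gave 135 genes of 55335 rows, of which 130 are annotated as protein-coding. The other 5, Kcnq1ot1, Kcnd3os, Kcnab3os, Kcnmb4os1 and Kcnmb4os2, are antisense RNAs that carry the name of a channel gene and encode no channel. Several protein-coding members are subunits or regulators and form no pore of their own.

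All libraries came from C57BL/6 mice aged 6 to 8 weeks that carried Iqgap3-2A-tdTomato, a reporter that makes the red protein tdTomato from the Iqgap3 locus. Living EpCAM+ (epithelial) corpus cells were sorted by reporter signal, with IQ3pos the high and IQ3neg the low or negative fraction. There were 2 SMART-Seq2 libraries (full-length cDNA from few cells) of each: IQ3pos_1909A and IQ3neg_1909B pooled 3 mice each, and IQ3pos_1910A and IQ3neg_1910B pooled 4 mice each. No fraction came from untagged mice, and a fraction is a mixture of epithelial cell types. The labels do not say that an IQ3pos and an IQ3neg library with the same number came from the same animals. Reads in genes ranged from 90714929 to 418401262 per library.

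Voltage-gated channels open when the membrane depolarises. Calcium channels of the CaV family then let in the calcium that triggers secretion in neurons and endocrine cells, sodium channels of the NaV family carry the upstroke of the action potential, and potassium channels bring the membrane back to rest. Potassium channels without a voltage sensor, the inward rectifiers and the tandem-pore K2P channels, set the resting potential. Enteroendocrine cells, the hormone-releasing cells of the gut epithelium, are electrically excitable, whereas most other cells of the gastric gland are not known for action potentials.

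Channel genes reached 1 CPM after TMM scaling more often in IQ3neg, though more of them had 0 reads there. At a level of at least 1 CPM after TMM scaling (counts per 1000000 reads, corrected for library composition), 24 and 16 of the 135 genes were present in IQ3pos_1909A and IQ3pos_1910A, against 42 and 46 in IQ3neg_1909B and IQ3neg_1910B. Over all rows, 10110 and 10839 were at this level in the IQ3pos libraries and 11735 and 12564 in the IQ3neg libraries. Of the 9 genes at this level in both IQ3pos libraries, 0 were below it in both IQ3neg libraries, against 194 of 8298 over all rows. Of the 30 genes at this level in both IQ3neg libraries, 15 were below it in both IQ3pos libraries, against 1149 of 10117 over all rows. These 15 were Cacna1a, Cacna2d1, Cacng4, Scn7a, Scn8a, Kcnab1, Kcnab3, Kcnh6, Kcnip3, Kcnip4, Kcnj11, Kcnk16, Kcnma1, Kcnn3 and Kcnq5. In IQ3pos_1909A and IQ3pos_1910A, 16 and 15 of the 135 genes had 0 reads, against 40 and 56 in IQ3neg_1909B and IQ3neg_1910B. Over all rows these counts were 25611 and 25318, against 33578 and 33512. The TMM factors, by which CPM were divided, were 1.42 and 1.15 in IQ3pos and 0.742 and 0.828 in IQ3neg. The scaling thus raised IQ3neg values against IQ3pos values. In bulk samples, fewer cells of a type and less RNA per cell cannot be told apart.

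No channel gene passed the test. Of 135 genes, 134 had a read in at least 1 library and 39 had a mean of at least 1 CPM and were tested, with limma on log2(TMM-scaled CPM + 1). Of these 39, 0 were called higher and 0 lower in IQ3pos at an adjusted p of 0.05, where 0.215% of all 13019 tested genes were called (0.023% higher and 0.192% lower). At an unadjusted p under 0.05, 0 were higher and 11 (28.2%) lower, against 6.76% and 7.79% of all tested genes. The edgeR quasi-likelihood test on recovered reads also called 0 higher and 0 lower of 68 channel genes, where 0.0535% and 0.214% of all genes were called. The DESeq2 Wald test called 3 higher and 15 lower of 92, where 5.13% and 9.95% of all genes were called. With a replicate block for the library number, limma called 0 higher and 3 lower (Kcnk16, Scn7a and Kcnmb2) of the 39, where 2.04% and 1.43% of all genes were called. A gene that clears the level filter through one fraction alone has to differ between fractions, so counts over the 39 describe them and carry no weight of their own.

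Over all 134 channel genes with a read, both IQ3pos values exceeded both IQ3neg values for 30 (22.4%) and lay under them for 27 (20.1%). Over all 38793 rows with a read, these shares were 23.6% and 10.5%. The 2 sets sat at very different levels. Of the 30 higher genes, 25 lay under 1 TMM-scaled CPM in both IQ3pos libraries and 18 had 0 reads in both IQ3neg libraries. Of the 27 lower genes, 21 lay at 1 TMM-scaled CPM or above in both IQ3neg libraries. With the CPM as deposited, the median log2 difference of all tested genes was 0.68, and it was 0.10 after TMM scaling. The median of the 39 channel genes was −0.58 and −1.26 on the same scales.

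**Figure D1:**
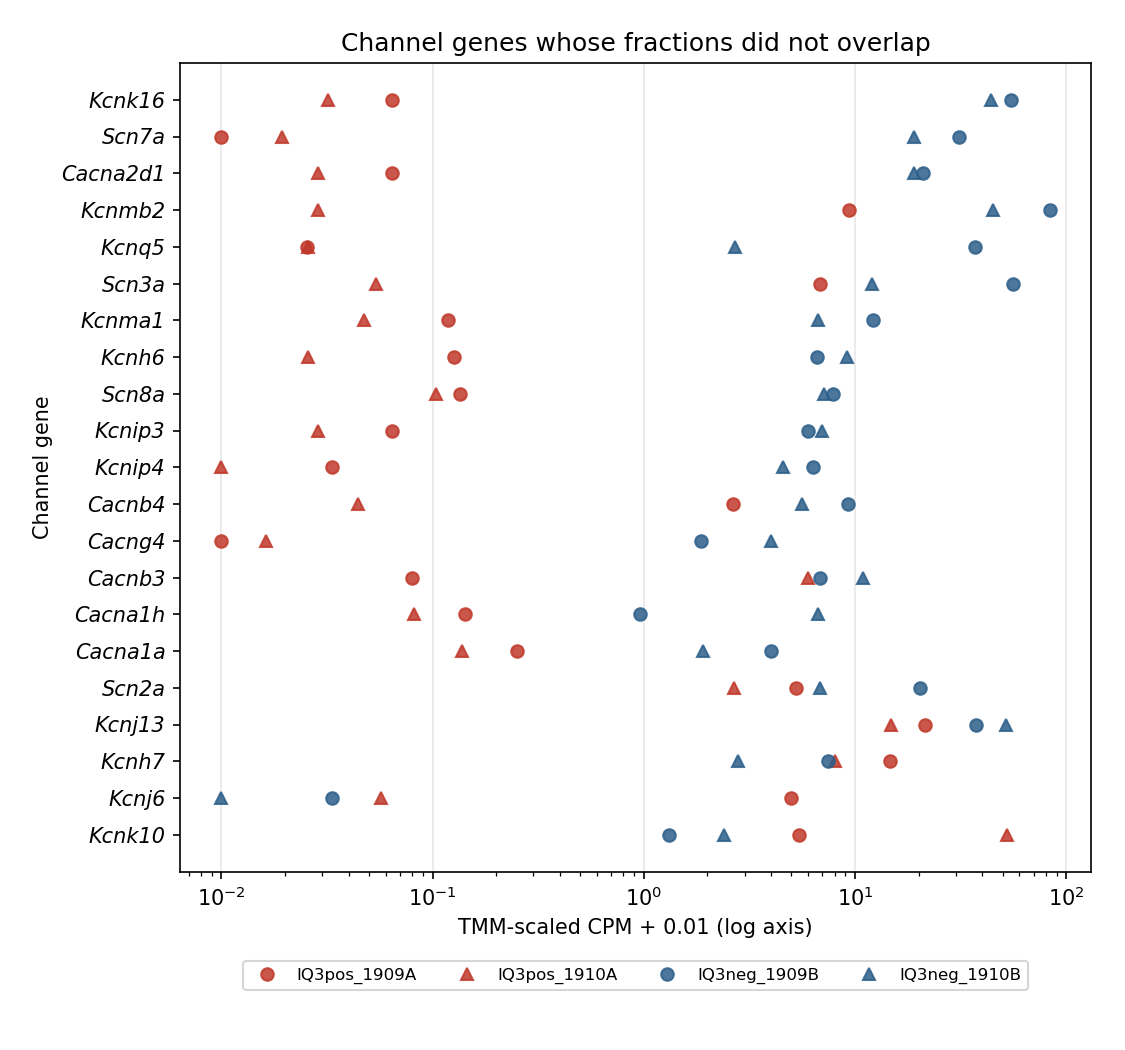
TMM-scaled CPM (plus 0.01, log axis) in each library for the 21 tested channel genes whose fractions did not overlap. Red marks are IQ3pos libraries, blue marks IQ3neg libraries, circles the pools of 3 mice and triangles the pools of 4 mice. The IQ3pos marks of Kcnk16, Scn7a and Cacna2d1 lie under 0.1, far left of their IQ3neg marks, while those of Kcnh7, Kcnj6 and Kcnk10 lie to the right.

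On the log2(TMM-scaled CPM + 1) scale, the K2P gene Kcnk16 had the largest difference of the 39 tested channel genes, whereas Scn7a had a larger one in edgeR (−11.93, against −10.80 for Kcnk16) and in DESeq2 (−12.37, against −10.42). Its product TALK-1 is a potassium channel known from pancreatic islet cells, where it holds down electrical activity. Kcnk16 stood at 0.0543 and 0.0219 TMM-scaled CPM in IQ3pos_1909A and IQ3pos_1910A, against 54.5 and 44.2 in IQ3neg_1909B and IQ3neg_1910B. The IQ3pos values rest on 7 reads each, with 95% exact Poisson intervals of 0.0219 to 0.112 and 0.00880 to 0.0451 TMM-scaled CPM, which cover counting error only. The mean in IQ3pos was 0.0772% of that in IQ3neg. Over the 20 listed enteroendocrine markers this share ran from 0.00933% (Scg2) to 83.4% (Isl1), and Chga, a secretory granule gene, stood at 1.55%. It ran from 0.741% (Bhlha15) to 17.2% (Pnliprp2) over 7 chief cell markers and from 2.34% (Il25) to 33.3% (Rgs13) over 8 tuft cell markers. Over 5 mast cell markers it ran from 0.164% (Mcpt1) to 9095% (Mcpt4), while 6 of 6 pit cell markers were higher in both IQ3pos libraries. The part of any of these cells in the Kcnk16 values was not tested. For Kcnk16, the log2(TMM-scaled CPM + 1) difference was −5.59 (SE 0.86, limma adjusted p = 0.102), with no overlap between the fractions but not past the threshold. Kcnk16 lies on chromosome 14 of GRCm38 at 20261376 to 20269199, near a second K2P gene, Kcnk5, at 20140057 to 20181809. Kcnk5 showed another pattern, at 0.0311 and 4.73 TMM-scaled CPM in IQ3pos and 0.0703 and 0.00577 in IQ3neg, so that its only sizeable value came from IQ3pos_1910A.

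Kcnk16, Scn7a and Kcnh6 are channel genes that stood near 0 in both IQ3pos libraries and have a searched motif in their promoter. Kcnip3 and Kcnip4 also stood near 0 there and have CAGATG in a promoter. Of these, the promoters of Kcnk16, Scn7a and Kcnh6 are shown as examples. They run from 250 bases before to 50 bases after the RefSeq start (GRCm38.p6), at chr14:20269220-20269519 on the minus strand for Kcnk16, chr2:66784861-66785160 on the minus strand for Scn7a and chr11:106007898-106008197 on the plus strand for Kcnh6. Capitals mark motif matches, CAGATG or its reverse complement CATCTG (an E-box of the kind bound by NeuroD-type factors) and TTCAGCACC (the left part of RE1, the element bound by the neuronal gene repressor REST).
Kcnk16: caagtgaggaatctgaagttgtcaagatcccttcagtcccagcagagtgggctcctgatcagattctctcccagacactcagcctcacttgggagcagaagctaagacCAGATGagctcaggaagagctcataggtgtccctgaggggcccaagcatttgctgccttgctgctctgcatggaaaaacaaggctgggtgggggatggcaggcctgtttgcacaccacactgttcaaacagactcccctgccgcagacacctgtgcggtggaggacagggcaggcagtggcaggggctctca
Scn7a: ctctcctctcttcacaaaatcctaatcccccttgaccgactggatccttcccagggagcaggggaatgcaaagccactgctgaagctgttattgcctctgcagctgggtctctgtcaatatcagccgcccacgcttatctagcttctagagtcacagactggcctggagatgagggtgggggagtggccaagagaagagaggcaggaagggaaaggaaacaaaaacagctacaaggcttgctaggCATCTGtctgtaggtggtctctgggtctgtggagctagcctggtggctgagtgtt
Kcnh6: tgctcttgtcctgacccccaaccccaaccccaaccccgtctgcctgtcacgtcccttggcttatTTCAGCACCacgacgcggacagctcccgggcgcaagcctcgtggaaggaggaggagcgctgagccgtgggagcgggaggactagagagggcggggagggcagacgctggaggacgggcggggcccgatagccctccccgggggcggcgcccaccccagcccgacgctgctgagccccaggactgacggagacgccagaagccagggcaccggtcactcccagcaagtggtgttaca
On both strands, CAGATG was found in 17.2% of all 32851 RefSeq promoters and in 25 (19.1%) of the 131 promoters matched to 99 channel genes. Of the 11 channel genes at a limma unadjusted p under 0.05, all but Scn3a were matched to a promoter, 15 promoters in all. Of these 15, 5 held CAGATG, 2 of them alternative promoters of Kcnip4, while 1 held TTCAGCACC, 0 GTTGCC and 0 TATAAA. TTCAGCACC was in 0.371% of all promoters and in 1 of the 131, that of Kcnh6. GTTGCC, a half-site of RFX factors, was in 12.5% of all promoters and in 17 of the 131. TATAAA, the TATA box, was in 13.6% of all promoters and in 5 (3.82%) of the 131. Each printed promoter holds 1 match of these motifs, so none overlap there. A match of letters is not a bound site.

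The other 13 K2P genes showed no common order. Of all 14, 2 were lower in both IQ3pos libraries (Kcnk16 and the untested Kcnk2, at 0 and 0.0156 TMM-scaled CPM in IQ3pos and 0.187 and 1.85 in IQ3neg) and 4 were higher in both, where 10.5% and 23.6% of all rows with a read were. Kcnk3, an acid-sensitive leak channel, stood at 6.99 and 0.0250 in IQ3pos and at 6.80 and 9.53 in IQ3neg, so that only IQ3pos_1910A was low. Kcnk12 and Kcnk13 had reads above trace in IQ3neg_1909B alone, at 1.92 and 3.37. Kcnk1, which encodes the leak channel TWIK-1, had the highest level per kilobase of exon of all channel genes. It stood at 58.9 and 99.6 TMM-scaled CPM in IQ3pos_1909A and IQ3pos_1910A and at 64.1 and 81.9 in IQ3neg_1909B and IQ3neg_1910B, so the fractions overlapped and the log2 difference was 0.08 (SE 0.45, limma adjusted p = 0.948). Its sign was negative with DESeq2 size factors and without the 20 most abundant genes. Kcnk10, which encodes the mechanically gated channel TREK-2, stood at 5.40 and 52.3 TMM-scaled CPM in IQ3pos and at 1.31 and 2.39 in IQ3neg. Both IQ3pos values lay above both IQ3neg values, and IQ3pos_1910A alone was far higher than the rest. The log2 difference of 2.72 (SE 1.24, limma adjusted p = 0.374) became 1.16 without IQ3pos_1910A.

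None of the sodium channel pore genes passed the test. Of 10 pore genes, 4 were tested, and in each of these 4 both IQ3pos libraries lay below both IQ3neg libraries. The share over all tested genes was 21.4%. A gene that passes the level filter through IQ3neg alone is lower in IQ3pos by that filter, so the count of 4 only describes. Over all 10, 4 lay below and 3 above in this way, where 10.5% and 23.6% of all rows with a read did. The 3 above were at under 0.5 TMM-scaled CPM throughout. The sum of the pore genes, with the beta subunits, was 12.8 and 6.03 TMM-scaled CPM in IQ3pos_1909A and IQ3pos_1910A and 117 and 45.0 in IQ3neg_1909B and IQ3neg_1910B. Scn7a, whose product Nax responds to extracellular sodium more than to voltage, had 0 and 3 reads in IQ3pos, against 2647 and 6576 reads in IQ3neg. On the TMM-scaled CPM scale this was 0 and 0.00938 in IQ3pos (3 reads in the first library would be 0.0233) and 31.0 and 19.0 in IQ3neg. The log2 difference was −4.65 (SE 0.94, limma adjusted p = 0.169).

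Scn3a, which encodes a channel of embryonic neurons and islet cells, stood at 6.80 and 0.0438 TMM-scaled CPM in IQ3pos and at 56.0 and 12.0 in IQ3neg. The library from 3 mice was the higher one within each fraction. Scn8a, the main sodium channel of adult neurons at the site of spike initiation, stood at 0.124 and 0.0938 in IQ3pos and at 7.88 and 7.14 in IQ3neg, with a tight spread in each fraction. Scn2a was the only pore gene of the family at 1 TMM-scaled CPM or above in every library, with 5.23 and 2.68 in IQ3pos and 20.2 and 6.80 in IQ3neg. The log2 differences were −3.25 (SE 1.31) for Scn3a, −2.94 (SE 0.92) for Scn8a and −1.43 (SE 0.96) for Scn2a, with limma adjusted p of 0.342, 0.274 and 0.558. Scn3a was −1.82 without IQ3pos_1910A and Scn2a −2.16 without IQ3neg_1910B.

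Scn3a, Scn2a and Scn7a belong to a cluster on chromosome 2 of GRCm38, where Scn3a starts at 65457118 and Scn7a ends at 66784914. Another cluster gene, Scn1a, was at trace level, with 0.0621 and 0.397 TMM-scaled CPM in IQ3pos and 0.0586 and 0.00866 in IQ3neg. The 4 beta subunit genes, whose products tether and tune the pore, were all below the level filter.

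Calcium channel genes summed to 12.1 and 13.9 TMM-scaled CPM in IQ3pos_1909A and IQ3pos_1910A and to 72.5 and 61.1 in IQ3neg_1909B and IQ3neg_1910B. Of 26 genes, 9 were tested, and 6 of these were lower and 0 higher in both IQ3pos libraries. The shares over all tested genes were 21.4% and 25.1%. A gene that passes the level filter through IQ3neg alone is lower in IQ3pos by that filter, so the count of 6 only describes. Over all 26, 7 were lower and 5 higher in both, where 10.5% and 23.6% of all rows with a read were. Cacna2d1 had the largest difference among them, an alpha2delta subunit that brings CaV channels to the surface and is the receptor of gabapentin. It stood at 0.0543 and 0.0188 TMM-scaled CPM in IQ3pos (7 and 6 reads) and at 21.0 and 19.0 in IQ3neg. The log2 difference was −4.34 with an SE of 0.93 (limma adjusted p = 0.182). The gene lies on chromosome 5 of GRCm38 at 15934691 to 16374511. The related Cacna2d2 stood at 0.155 and 1.09 TMM-scaled CPM in IQ3pos and 0.0469 and 0.381 in IQ3neg, and Cacna2d3 stayed under 0.1 in every library.

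Among the 4 tested pore genes, Cacna1a and Cacna1h did not overlap between fractions. Over all 10 pore genes, 2 were lower and 1, at trace level, was higher in both IQ3pos libraries, where 10.5% and 23.6% of all rows with a read were. Cacna1a, the P/Q-type channel of nerve terminals, stood at 0.241 and 0.128 TMM-scaled CPM in IQ3pos and at 3.98 and 1.90 in IQ3neg. Cacna1h, a T-type channel that opens at low voltage, stood at 0.132 and 0.0719 in IQ3pos and at 0.949 and 6.69 in IQ3neg. Neither passed (limma adjusted p = 0.437 and 0.470), and the log2 difference of Cacna1h, −1.81, was −3.11 without IQ3neg_1909B.

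Cacna1b, the N-type channel, and Cacna1d, an L-type channel of endocrine cells, were present in both fractions without a common order. Cacna1b stood at 1.20 and 4.58 TMM-scaled CPM in IQ3pos and at 5.53 and 1.83 in IQ3neg. Cacna1d stood at 5.10 and 0.106 in IQ3pos and at 1.04 and 1.73 in IQ3neg, and its sign turned with a pseudocount of 0.1 (−0.48, against 0.14).

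The beta subunits, which bind the pore subunit inside the cell, had 3 tested genes. Cacnb4 stood at 2.64 and 0.0344 TMM-scaled CPM in IQ3pos and at 9.28 and 5.61 in IQ3neg. Cacnb3 stood at 0.0699 and 5.96 in IQ3pos and at 6.80 and 10.9 in IQ3neg, so the fractions did not overlap but IQ3pos_1910A came close to IQ3neg_1909B. Cacnb2 owed its level to IQ3neg_1909B, with 0.124 and 0.294 in IQ3pos and 16.6 and 0.0144 in IQ3neg. Of 8 gamma subunit genes, Cacng4 was tested. It encodes a protein better known as an accessory subunit of AMPA-type glutamate receptors, and had 0 and 2 reads in IQ3pos against 158 and 1380 in IQ3neg (1.85 and 3.98 TMM-scaled CPM). Limma adjusted p was 0.433, 0.555, 0.605 and 0.374 for Cacnb4, Cacnb3, Cacnb2 and Cacng4. Single libraries moved the beta subunit differences: Cacnb4 was −1.19 without IQ3pos_1910A, against −2.09, Cacnb3 −0.68 without IQ3pos_1909A and −3.13 without IQ3pos_1910A, against −1.82, and Cacnb2 −3.93 without IQ3neg_1910B, against −1.81.

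**Figure D2:**
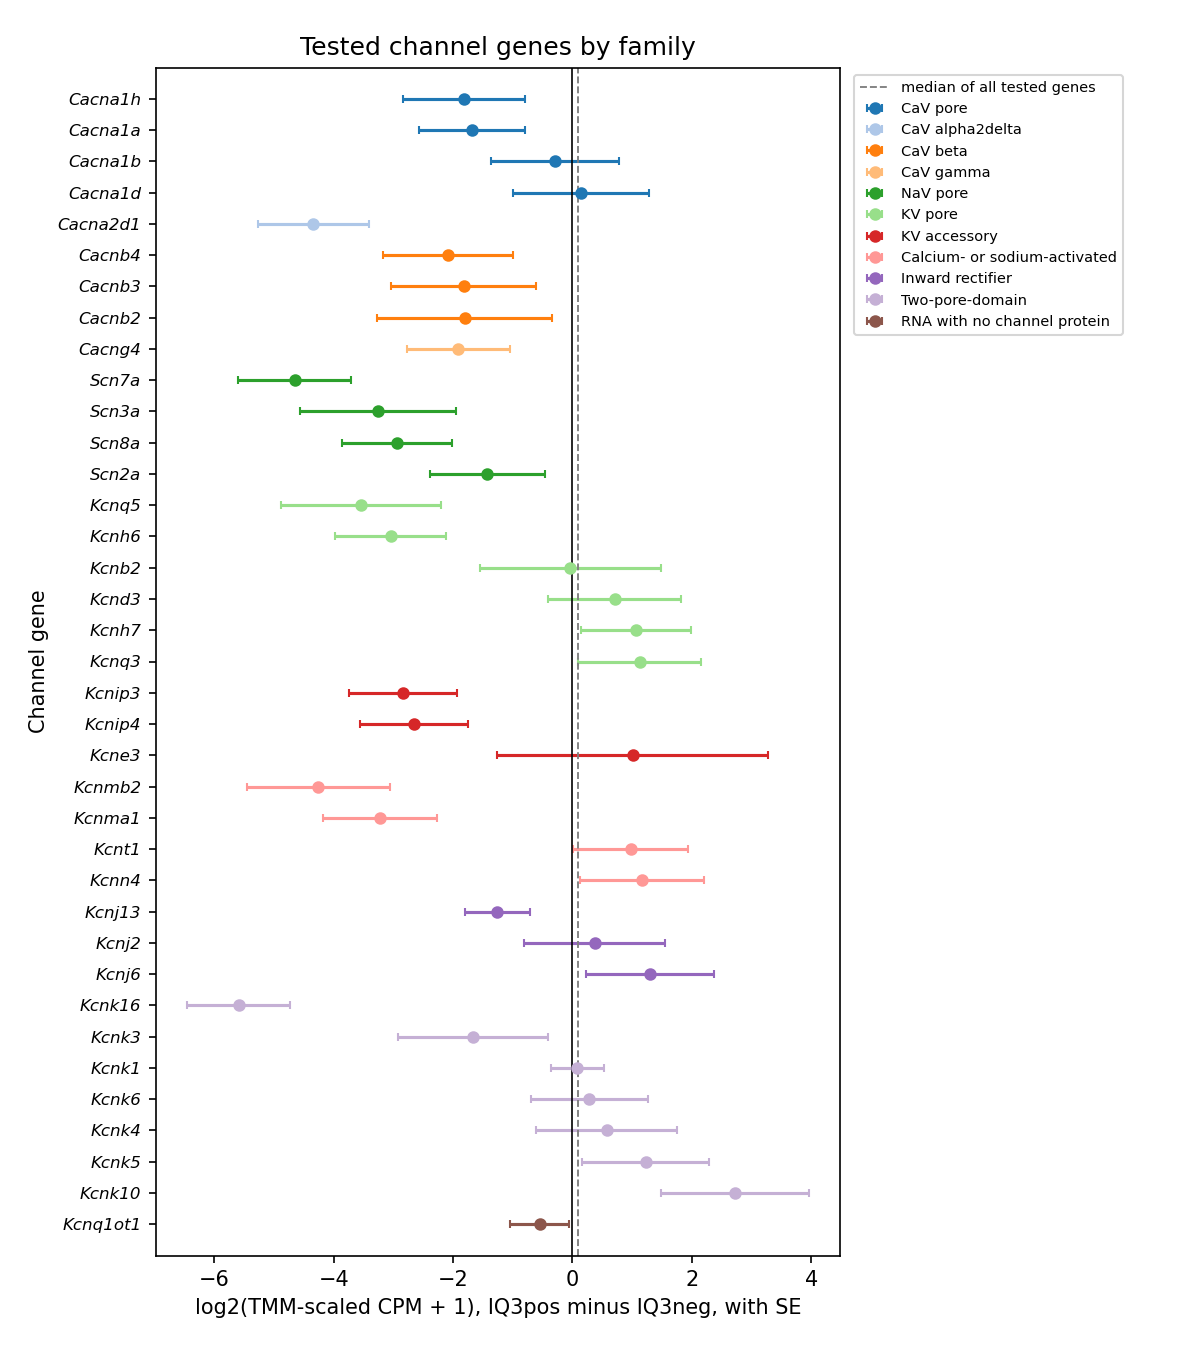
Difference in log2(TMM-scaled CPM + 1), IQ3pos minus IQ3neg, for 37 of the 39 tested channel genes by family, with limma's moderated SE from 2 libraries a fraction. The grey dashed line is the median of all tested genes (0.10). The 4 NaV pore genes lie left of it, from −4.65 to −1.43, while KV pore and K2P genes lie on both sides.

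The large-conductance calcium-activated channel BK, which couples calcium entry to repolarisation, had 2 tested genes, its pore gene and 1 beta subunit gene. Both lay below IQ3neg in both IQ3pos libraries, where 21.4% of all tested genes did, and neither passed the threshold. The pore gene passed the level filter through IQ3neg alone, so the count of 2 only describes. Over all 12 calcium- or sodium-activated genes, 3 were lower and 3 higher in both IQ3pos libraries, where 10.5% and 23.6% of all rows with a read were. Kcnmb2, the beta subunit that makes BK channels inactivate, stood at 9.39 and 0.0188 TMM-scaled CPM in IQ3pos_1909A and IQ3pos_1910A and at 83.6 and 44.8 in IQ3neg_1909B and IQ3neg_1910B. The IQ3pos libraries thus lay far apart, on 1210 and 6 reads, and both below IQ3neg. Its log2 difference was −4.26 (SE 1.20, limma adjusted p = 0.259), and −2.60 without IQ3pos_1910A. Kcnma1, the BK pore, stood at 0.109 and 0.0375 TMM-scaled CPM in IQ3pos and at 12.1 and 6.65 in IQ3neg (limma adjusted p = 0.265). The other beta subunit genes were at trace level. Kcnmb1 had 2 and 7 reads in IQ3pos and 0 in both IQ3neg libraries, Kcnmb3 reached 0.485 in IQ3pos_1910A with at most 1 read elsewhere, and Kcnmb4 had at most 4 reads in a library.

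Kcnn3, a small-conductance calcium-activated channel below the level filter, stood at 0.179 and 0.0344 TMM-scaled CPM in IQ3pos and at 2.79 and 1.59 in IQ3neg. Kcnn4, the intermediate-conductance channel found in many epithelia, ordered differently. It stood at 10.6 and 53.2 TMM-scaled CPM in IQ3pos and at 4.99 and 19.8 in IQ3neg, being higher in IQ3pos within each library number while the fractions overlapped. The log2 difference was 1.17 (SE 1.04, limma adjusted p = 0.623), and it was −0.025 without IQ3neg_1909B, 0.028 without IQ3pos_1910A and 2.07 without IQ3neg_1910B.

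Of 39 KV pore genes, 8 were tested, with Kcnq5 and Kcnh6 lower and Kcnh7 higher in both IQ3pos libraries. The shares over all tested genes were 21.4% lower and 25.1% higher. Over all 39, 5 were lower and 8 higher in both, where 10.5% and 23.6% of all rows with a read were. Kcnq5 encodes a subunit of the M-current, which damps repetitive firing. It had 2 and 5 reads in IQ3pos, 0.0155 and 0.0156 TMM-scaled CPM, and 37.1 and 2.68 TMM-scaled CPM in IQ3neg, where the 2 libraries differed widely. Kcnh6, of the ether-a-go-go-related (ERG) channels, stood at 0.116 and 0.0156 TMM-scaled CPM in IQ3pos and at 6.62 and 9.14 in IQ3neg. Limma adjusted p was 0.323 for Kcnq5 and 0.268 for Kcnh6.

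Kcnh7, a second ERG gene, stood at 14.6 and 8.02 TMM-scaled CPM in IQ3pos and at 7.45 and 2.78 in IQ3neg. The log2 difference was 1.07 with an SE of 0.92 (limma adjusted p = 0.617), and it was 0.44 without IQ3pos_1909A and 0.49 without IQ3neg_1910B. Part of its exons, up to 696 bases, overlap those of Gca on the other strand. As no strand setting is given, reads of this stretch cannot be assigned to either gene. Gca stood at 28.9 and 0.106 TMM-scaled CPM in IQ3pos and at 16.6 and 39.3 in IQ3neg.

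The KV accessory genes Kcnip3 and Kcnip4 encode calcium-binding proteins that modulate fast-inactivating potassium channels. Kcnip3 stood at 0.0543 and 0.0188 TMM-scaled CPM in IQ3pos and at 5.96 and 6.97 in IQ3neg. Kcnip4 had 3 and 0 reads in IQ3pos and stood at 6.32 and 4.55 TMM-scaled CPM in IQ3neg. Their log2 differences were −2.85 (SE 0.91) and −2.66 (SE 0.90), with limma adjusted p of 0.278 and 0.291. Below the level filter, the beta subunit genes Kcnab1 and Kcnab3 had the same order, with at most 7 reads in an IQ3pos library and from 1.20 to 2.47 TMM-scaled CPM in the IQ3neg libraries.

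Of the inward rectifiers, Kcnj13, the channel Kir7.1 of several transporting epithelia, was the most abundant per kilobase. It stood at 21.5 and 14.7 TMM-scaled CPM in IQ3pos and at 37.5 and 51.7 in IQ3neg. The log2 difference was −1.26 with an SE of 0.54 (limma adjusted p = 0.359). Its exons overlap those of Gigyf2 on the other strand by up to 355 bases, and Gigyf2 stood at 49.0 and 21.3 TMM-scaled CPM in IQ3pos and 32.7 and 41.4 in IQ3neg, so part of these reads may belong to either gene. Kcnj11, the pore of the ATP-sensitive channel that couples metabolism to hormone release, was below the level filter, with 8 and 0 reads in IQ3pos and 86 and 508 reads in IQ3neg.

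Kcnj2, a widespread inward rectifier, stood at 0.342 and 4.13 TMM-scaled CPM in IQ3pos and at 0.0234 and 3.02 in IQ3neg. Kcnj1, the renal channel ROMK, stood at 3.97 TMM-scaled CPM in IQ3neg_1910B, with 0 reads in IQ3pos_1910A and IQ3neg_1909B and 0.0155 in IQ3pos_1909A. Among the antisense RNAs, Kcnq1ot1 was abundant in every library, at 76.8 and 37.2 TMM-scaled CPM in IQ3pos and 85.7 and 72.2 in IQ3neg (limma adjusted p = 0.627). It is a long unspliced RNA opposite Kcnq1, from which reads cannot be told apart without strand. Its difference was −0.55 after TMM scaling and 0.14 with deposited CPM, and −1.31 without IQ3pos_1909A and −0.057 without IQ3pos_1910A. Kcnd3os and Kcnmb4os1 stayed under 0.5 in every library, and Kcnab3os had no read in any.

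**Figure D3:**
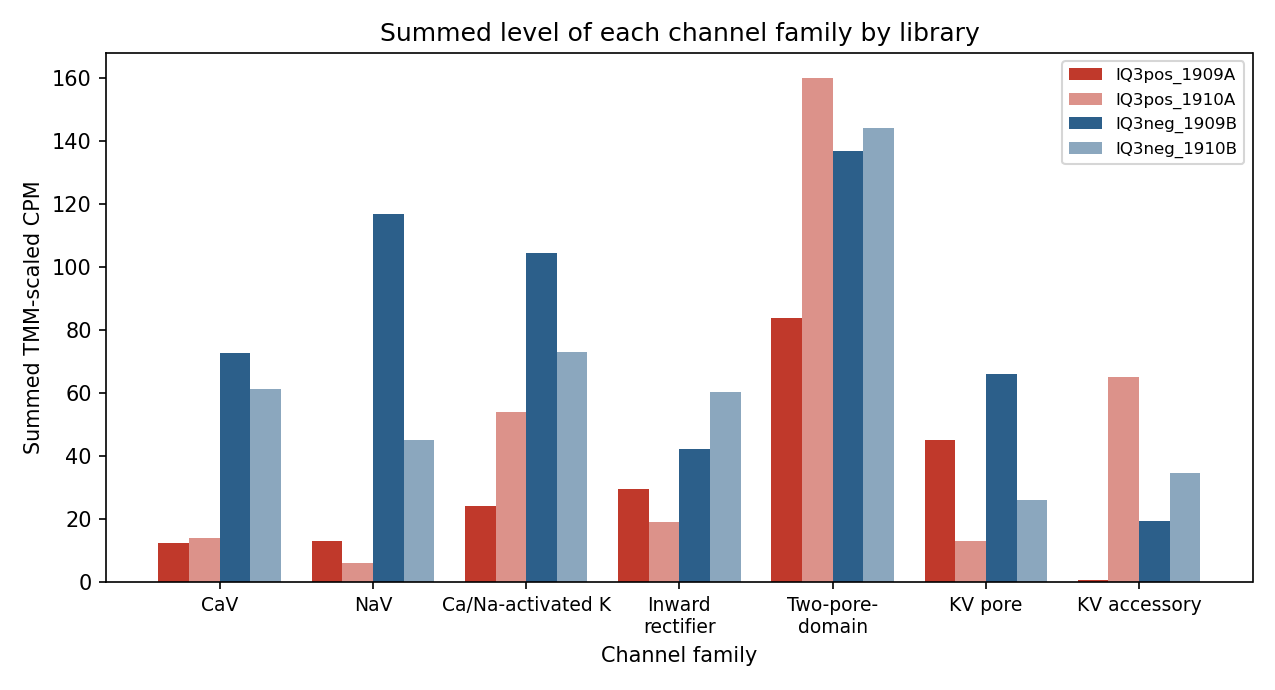
Summed TMM-scaled CPM of each channel family in each library. Red bars are IQ3pos libraries and blue bars IQ3neg libraries, dark for the pools of 3 mice and light for the pools of 4 mice. The CaV and NaV sums of both IQ3pos libraries lie under 15, below those of both IQ3neg libraries. The sums of calcium- or sodium-activated potassium channels and of inward rectifiers are also lower in both IQ3pos libraries. The K2P (two-pore-domain), KV pore and KV accessory sums overlap.

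Several channel genes followed the library number more than the fraction, and the labels do not say that this number marks the same animals. Kcne3, a single-span subunit that holds epithelial KCNQ1 channels open, had 0 reads in both libraries from 3 mice and stood at 64.0 in IQ3pos_1910A and 15.1 TMM-scaled CPM in IQ3neg_1910B. Kcnb2, a delayed rectifier, stood at 6.71 in IQ3pos_1909A and 7.61 in IQ3neg_1909B and at 0.0626 and 0 in IQ3pos_1910A and IQ3neg_1910B. Kcnj2 had the same split as Kcne3. Gast, the gastrin gene of antral G cells, had 0 reads in both libraries from 3 mice and stood at 17.1 in IQ3pos_1910A and 588 TMM-scaled CPM in IQ3neg_1910B, and its part in these values was not tested.

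Other channel genes were seen mainly in a single library. Kcnj6, Kcnq3 and Kcnt1 owed their levels to IQ3pos_1909A, at 4.95, 3.98 and 3.11 TMM-scaled CPM, and were under 0.2 in the other libraries. Kcnk5 in turn owed its level to IQ3pos_1910A. Each of these thus had its level in 1 IQ3pos library, with at most 16 reads in the replicate of that library.

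**Figure D4:**
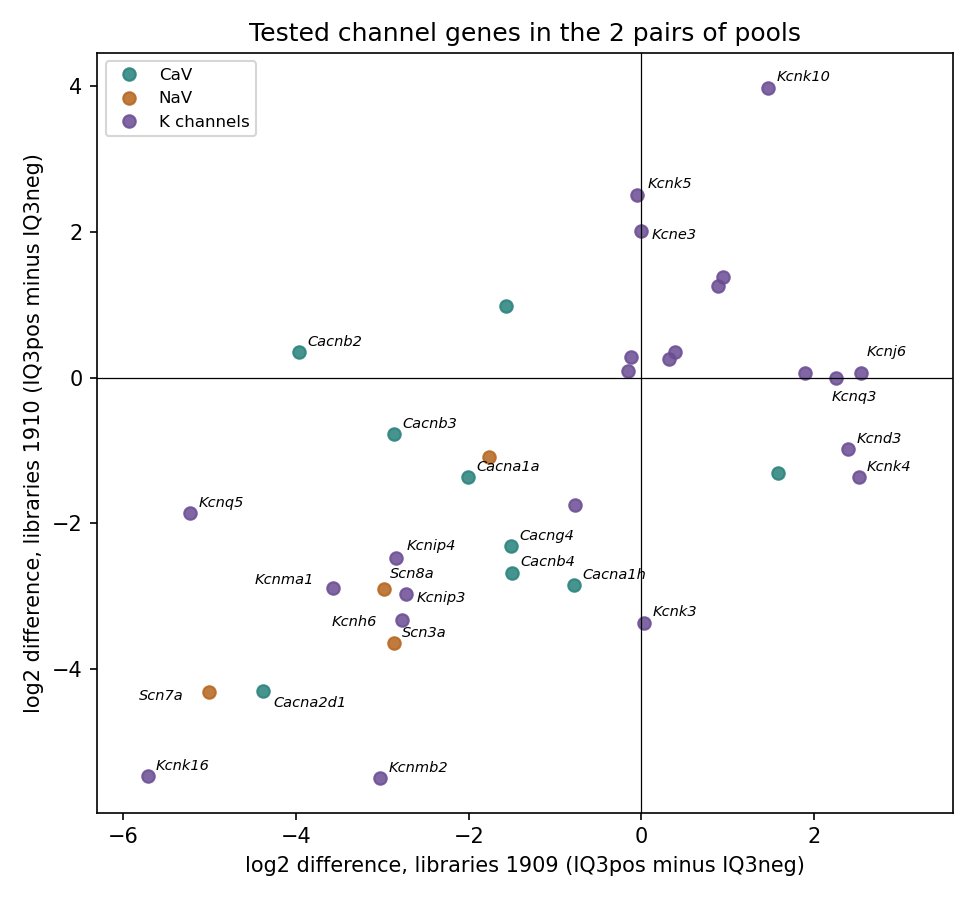
Log2(TMM-scaled CPM + 1) difference, IQ3pos minus IQ3neg, for the pools of 3 mice (IQ3pos_1909A and IQ3neg_1909B, horizontal axis) and of 4 mice (IQ3pos_1910A and IQ3neg_1910B, vertical axis), for tested calcium, sodium and potassium channel genes, each point a gene. Names are given where either difference exceeds 2. Kcnk16 (−5.72 and −5.47), Scn7a and Cacna2d1 lie at the lower left on both axes, whereas Kcnk5 and Kcnq3 lie on or close to an axis.

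Partners of these channels, listed by function, had 0 genes past the limma threshold in either direction. Of the CaV partners and inhibitors, 6 of 14 were tested, of the NaV partners 6 of 9, of the potassium channel partners 3 of 9 and of other cation channels 8 of 25. The median log2 differences were −0.84, −2.64, 0.22 and −3.003 in this order, beside 0.10 for all tested genes. The following genes were among the most abundant of their lists. Calm2, for calmodulin, stood at 3997 and 5760 TMM-scaled CPM in IQ3pos and at 3204 and 3350 in IQ3neg. Ank3 (ankyrin-G), an anchor of sodium channels also used in epithelia, stood at 91.0 and 54.4 in IQ3pos and 33.4 and 50.6 in IQ3neg, and the ubiquitin ligase gene Nedd4l at 6.51 and 39.0 in IQ3pos and 23.8 and 23.0 in IQ3neg. Ensa stood at 33.1 and 107 in IQ3pos and 46.3 and 56.5 in IQ3neg, and Lrrc26, a BK gamma subunit of secretory epithelia, at 13.5 and 20.6 in IQ3pos and 4.90 and 14.8 in IQ3neg. Trpm7, a broadly expressed cation channel and kinase, stood at 37.6 and 72.5 in IQ3pos and 58.6 and 38.8 in IQ3neg. Trpm5, also listed as a tuft cell marker, stood at 7.48 and 0.0563 in IQ3pos and 45.1 and 90.7 in IQ3neg.

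Partner genes went in both directions. Over the 4 lists of 57 genes in all, 18 were lower and 13 higher in both IQ3pos libraries, beside 10.5% and 23.6% of all rows with a read. The following were chosen after their values were seen. Dpp6, an accessory protein of fast-inactivating potassium channels, stood at 0.109 and 1.91 TMM-scaled CPM in IQ3pos and at 0 and 0.0173 in IQ3neg, and Hcn3, a pacemaker channel gene, at 0.0233 and 1.45 in IQ3pos with 0 reads in both IQ3neg libraries. Scnn1a, of the epithelial sodium channel, stood at 11.6 and 2.08 in IQ3pos and at 0.0117 and 1.74 in IQ3neg. Abcc8, the sulfonylurea receptor that pairs with the product of Kcnj11, stood at 0.0776 and 0.0782 TMM-scaled CPM in IQ3pos and at 9.64 and 13.5 in IQ3neg. Fgf13 and Fgf14, intracellular regulators of sodium channels, stood at 0.124 and 0.0250 and at 0 and 0.966 in IQ3pos and at 18.8 and 10.9 and at 15.3 and 15.8 in IQ3neg. All 4 listed genes of the sodium leak channel complex had the same order. Its pore gene Nalcn stood at 0.0466 and 5.08 in IQ3pos and 14.8 and 20.9 in IQ3neg. Unc80 stood at 0.163 and 0.0407 in IQ3pos and 38.7 and 10.9 in IQ3neg, Unc79 at 0.0466 and 0.0438 in IQ3pos and 25.6 and 3.31 in IQ3neg, and Fam155a at 0.0776 and 0.0438 in IQ3pos and 9.91 and 6.84 in IQ3neg. The smallest limma adjusted p among these genes was 0.229, for Unc80.

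Markers of enteroendocrine cells had the same order as the lower channel genes. Of 20 listed markers, 19 were tested, 7 were called lower in IQ3pos and 18 were lower in both IQ3pos libraries. Of all tested genes 0.192% were called lower, and of all rows with a read 10.5% were lower in both. The markers summed to 489 and 369 TMM-scaled CPM in IQ3pos_1909A and IQ3pos_1910A and to 24490 and 14490 in IQ3neg_1909B and IQ3neg_1910B. Chga fell to 44.6 ± 8.77 in IQ3pos, against 2885 ± 405 in IQ3neg (SD, n = 2 each, limma adjusted p = 0.0149). Their part in the channel differences was not tested.

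Marker lists of other gastric cell types differed between the fractions as well. For comparison, 10.5% of all rows with a read were lower and 23.6% higher in both IQ3pos libraries. Tuft cell markers summed to 424 and 128 TMM-scaled CPM in IQ3pos and 557 and 1461 in IQ3neg, with 6 of 8 lower in both IQ3pos libraries. One of them is the cation channel gene Trpm5, at 7.48 and 0.0563 in IQ3pos and 45.1 and 90.7 in IQ3neg. Chief cell markers summed to 35870 and 17050 in IQ3pos and 560100 and 488300 in IQ3neg, with 7 of 7 lower in both IQ3pos libraries. Parietal cell markers summed to 3197 and 2925 in IQ3pos and 679 and 871 in IQ3neg, with 7 of 10 higher in both IQ3pos libraries and Cckbr lower in both, at 3.12 and 5.31 in IQ3pos and 43.8 and 115 in IQ3neg. Mucous neck markers summed to 3644 and 7547 in IQ3pos and 1591 and 2618 in IQ3neg, where Tff2 was higher in both IQ3pos libraries and Muc6 and Gkn3 overlapped. Proliferation markers summed to 752 and 2266 in IQ3pos and 116 and 242 in IQ3neg, with 8 of 8 higher in both IQ3pos libraries, and 6 of 6 pit cell markers were also higher in both. The part of these cell types in the channel values was not tested.

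Marker lists of cells that an EpCAM sort should remove, and a separate list for pancreatic islets, held genes near 0 and genes well above it. Of the enteric neuron markers, Phox2a and Prph stayed under 0.03 TMM-scaled CPM in every library. Elavl4 stood at 0 and 0.0375 in IQ3pos and 9.28 and 10.7 in IQ3neg, and Ret at 0.124 and 0.0156 in IQ3pos and 7.31 and 1.08 in IQ3neg. The neuron list summed to 0.411 and 0.219 in IQ3pos and 16.7 and 14.7 in IQ3neg, and the glial list to 2.86 and 0.0344 in IQ3pos and 2.25 and 2.73 in IQ3neg, with Sox10 under 0.1 throughout. Muscle and Cajal cell markers summed to 9.70 and 36.9 in IQ3pos and 23.3 and 51.4 in IQ3neg. The 5 muscle genes of that list stayed under 0.1, while Kit stood at 0.248 and 0.0563 in IQ3pos and 12.4 and 33.1 in IQ3neg and Ano1 at 8.30 and 36.7 in IQ3pos and 0.0703 and 4.58 in IQ3neg. Endothelial markers summed to 1.06 and 0.122 in IQ3pos and 5.80 and 14.6 in IQ3neg, nearly all of it Tek in IQ3neg (5.73 and 14.6), while Pecam1 and Cdh5 stayed under 0.1. Immune markers summed to 39.6 and 6.39 in IQ3pos and 105 and 25.2 in IQ3neg, and mast cell markers to 37.6 and 4.28 in IQ3pos and 189 and 51.1 in IQ3neg. Of the islet list, Ins1 had 0 reads in every library and Ins2 2 reads in 1, while Gcg, the gene of glucagon and related hormones, stood at 0.0311 and 0.0626 in IQ3pos and 237 and 231 in IQ3neg. The list summed to 0.0776 and 0.0813 in IQ3pos and 250 and 257 in IQ3neg. The part of the cells behind any of these lists in the channel values was not tested.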

How the data were processed

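The authors deposited CPM (counts per 1000000 reads in genes) for each gene symbol and library. Per the submitters' processing notes, STAR 2.7.1a, featureCounts, Subread 2.0.0 and edgeR were used on GRCm38/mm10; the sources used here give neither the annotation nor the strand setting, nor how reads with several matches were handled. Whole reads were recovered from the deposited CPM: 100% of values above 0 lay within 0.05 of a whole multiple of the library's step (1 in 1000000 for large values). Here CPM were divided by TMM factors from edgeR 4.0.16 and tested in R 4.3.3 by limma 3.58.1 with a mean-variance trend on log2(TMM-scaled CPM + 1), two-sided, for the 13019 genes with a mean deposited CPM of at least 1, with Benjamini-Hochberg adjustment at 0.05 over all of them. Differences on this scale understate the change of low genes. With 2 libraries a fraction, 2 residual and 4.07 prior degrees of freedom, p-values measure the spread between libraries, part of which may be technical. The script was tested on simulated data.

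Channel genes were named with values where past the threshold, among the 3 highest of their family per kilobase of exon (GENCODE vM21 union exons), or among the 10 largest differences with a mean of at least 5 TMM-scaled CPM and no overlap between fractions. Of those named, Kcnk2, Kcnk3, Kcnk12, Kcnk13, Kcnmb1, Kcnmb3, Kcnmb4, Kcnk5, Kcnn3, Kcnab1, Kcnab3, Kcnj11, Kcnj6, Kcnb2, Kcnq3, Kcnt1, Scn1a, Scn8a and Cacna1a fall outside this rule and were chosen after their values were seen, as were the lists of 15 genes and of reads at trace level. Members and lists were chosen with earlier results of these data known. The pseudocount, the filter and the scaling were varied, each library was dropped once, the library number was added as a block, and edgeR and DESeq2 1.42.0 were run on the recovered reads. Some genes are not reported here by name or drawn. Promoters are from RefSeq (GRCm38.p6).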

Additional observations from a re-analysis of the deposited data

How the results depend on the processing

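The 0 channel genes called higher stayed 0 under every alternative but the DESeq2 Wald test (3), and the 0 called lower under every one but this test (15) and the replicate block (3: Kcnk16, Scn7a and Kcnmb2). The shared library numbers are not stated to pair the samples. Deviations of same-numbered libraries correlated at 0.155 over 13019 genes, and with the block limma called 265 genes higher and 186 lower, against 3 and 25. All-gene calls, higher then lower, were 0 and 1 with a pseudocount of 0.1, 15 and 52 with 5, 0 and 0 with a filter of 0.1 CPM, with no filter and with deposited CPM, and 1 and 13 without the 20 most abundant genes. Higher calls were 7 with DESeq2 size factors and 9 in edgeR, and DESeq2 called 1064 and 2063. Leaving out any 1 library gave from 0 to 0 calls in either direction for all genes. The median log2 difference of tested channel genes, −1.26, was −0.60 with a pseudocount of 5, −0.71 with a filter of 0.1 CPM, 0.011 with no filter (134 genes, most near 0), −0.58 with deposited CPM and −1.86 in edgeR. It ran from −1.73 to −0.94 with 1 library left out. The cause of these changes was not tested. The counts of genes whose fractions did not overlap kept within 1.5 times under each scaling.

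Of 359 values of 26 named channel genes under 14 alternatives, 328 kept direction and side of the threshold, 13 passed it and 18 changed sign. Those that changed sign were Cacna1b with deposited CPM (0.20) and without IQ3pos_1909A (0.16) or IQ3neg_1909B (0.11), Kcnn4 (−0.025), Kcne3 (−1.28), Kcnk1 (−0.40), Kcnj2 (−0.85) and Cacna1d (−0.30) without IQ3neg_1909B, and Kcne3 (−1.99), Kcnk1 (−0.32) and Kcnj2 (−0.60) without IQ3pos_1910A. Kcnq1ot1 did so with deposited CPM (0.14) and Cacna1d with a pseudocount of 0.1 (−0.48) and without the 20 most abundant genes (−0.079). Kcnk1 was −0.021 with DESeq2 size factors, −0.21 without the 20 most abundant genes, −0.032 in edgeR and −0.0058 in DESeq2. With 1 library left out, which leaves a lone library assumed to vary like the other fraction, differences ran from −0.97 to 0.16 for Cacna1b, −0.025 to 2.07 for Kcnn4, −1.99 to 3.72 for Kcne3, −0.40 to 0.25 for Kcnk1, −0.85 to 1.40 for Kcnj2 and −0.30 to 1.33 for Cacna1d. The adjusted p of Kcnk16 ran from 2.93e-06 (DESeq2) to 0.385 (without IQ3pos_1909A), and was 0.0576 in edgeR and 0.0659 with deposited CPM. A level of 3 reads, the limit that a count of 0 allows, ranged from 0.00866 to 0.0351 TMM-scaled CPM across libraries.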
